A study of Rattus norvegicus with 96 samples.

Results

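Meningeal fibroblast genes were examined across the ventral tegmental area (VTA), nucleus accumbens (NAc) core and NAc shell of rats treated with nicotine (NIC) or saline (SAL). The 7 genes, of 17637 in the deposited count table, were chosen by name as genes of these cells and not by a threshold on their values: Dcn (ENSRNOG00000004554, chromosome 7), Lum (ENSRNOG00000004610, chromosome 7), Col1a1 (ENSRNOG00000003897, chromosome 10), Col1a2 (ENSRNOG00000011292, chromosome 4), Col3a1 (ENSRNOG00000003357, chromosome 9), Slc13a4 (ENSRNOG00000011184, chromosome 4) and Slc6a13 (ENSRNOG00000012876, chromosome 4). The choice was made with earlier results of these data known, so counts of calls among the 7 are not independent evidence. All 7 passed the filter on low counts, which 16879 genes passed. RNA-seq was made from 32 F1 rats, 16 per sex, bred in both directions between the inbred strains F344 and BN, so that all groups share this F1 background. Young adult rats received 0.4 mg/kg NIC or SAL once a day for 4 days, and tissue was taken on day 17 by the labels, without a further NIC injection. Each of the 12 groups of sex, region and treatment had 8 rats, except male VTA SAL and female NAc core NIC with 7 each. Tissue was dissected by hand, the males came from one collection box and the females from another, and libraries were prepared in 10 batches of which only batch L held both sexes. Differences between the sexes and differences between boxes cannot be told apart. Prep batch also went largely with treatment. In males, batches A and B held only SAL and D only NIC, and in females G, H and I held only NIC and K only SAL. Within a sex and region both treatments met only in batch C for males and J for females, and in L for female VTA.

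Meningeal fibroblasts lie in the pia and arachnoid that cover the brain, and follow larger vessels a short way into the tissue. They lay down the collagen sheet of these membranes: type I collagen is built from the chains made by Col1a1 and Col1a2, type III collagen from the chain made by Col3a1, and decorin (Dcn) and lumican (Lum) are small proteoglycans that bind collagen fibrils and set their spacing. The same cells carry transporters that face the cerebrospinal fluid, among them the sulfate transporter Slc13a4 and the GABA transporter Slc6a13. In such bulk samples fewer cells of a type and less RNA per cell cannot be told apart.

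RefSeq promoters were found for 3 of the 7 genes and are shown because the genes varied together from rat to rat. Each is the sequence from 250 bases before to 50 bases after the annotated start in the GRCr8 build, written 5′ to 3′ on the strand of the gene, with matches to 3 promoter motifs in capitals, searched on both strands. The TATA box was searched as TATAAA. The letters for the CCAAT box were CCAAT. For the GC box they were GGGCGG. A match on the opposite strand appears as its reverse complement, and no capitals overlap between motifs.
Lum chr7:34245456-34245755 (+): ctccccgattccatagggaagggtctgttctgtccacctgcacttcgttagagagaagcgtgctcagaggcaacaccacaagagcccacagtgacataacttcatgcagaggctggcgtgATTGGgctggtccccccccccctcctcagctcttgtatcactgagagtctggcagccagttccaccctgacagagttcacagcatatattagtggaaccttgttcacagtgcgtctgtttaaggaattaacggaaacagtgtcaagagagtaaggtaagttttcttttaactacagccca
Col1a2 chr4:33518307-33518606 (+): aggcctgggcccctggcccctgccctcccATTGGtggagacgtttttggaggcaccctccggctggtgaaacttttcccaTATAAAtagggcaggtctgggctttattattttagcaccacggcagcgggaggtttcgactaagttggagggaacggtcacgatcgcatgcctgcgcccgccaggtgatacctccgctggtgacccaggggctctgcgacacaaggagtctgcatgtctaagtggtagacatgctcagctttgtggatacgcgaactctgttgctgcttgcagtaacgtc
Slc13a4 chr4:64955937-64956236 (-): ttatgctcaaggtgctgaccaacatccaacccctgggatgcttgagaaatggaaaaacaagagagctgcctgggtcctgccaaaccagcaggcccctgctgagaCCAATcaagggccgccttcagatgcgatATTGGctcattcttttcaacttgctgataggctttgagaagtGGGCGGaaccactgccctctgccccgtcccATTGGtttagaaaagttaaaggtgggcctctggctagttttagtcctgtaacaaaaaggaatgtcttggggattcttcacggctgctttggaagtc
The Lum promoter held 1 CCAAT motif, on the opposite strand with its first base 130 bases before the start. In the Col1a2 promoter a TATA box began 170 bases before the start, and CCAAT lay on the opposite strand 221 bases before it. Slc13a4 had CCAAT on its own strand 146 bases before the start, on the opposite strand at 118 and 46 bases before it, and a GC box at 76 bases before it. CCAAT is the motif the 3 promoters share, and 37.5% of 33469 promoters of this length held it on either strand. For the TATA box the share was 14.2%, and for the GC box it was 33.1%. A motif match describes letters in these windows, and binding was not measured.

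Values are given as CPM, the usual unit of counts relative to library size, computed from the deposited counts with edgeR's TMM factors. Library totals ranged from 15868529 to 27736905 counts, and the lowest value of any of the 7 genes in an analysed library was 3.45 CPM, for Lum in NAc core. Intervals of a library's own counting error are therefore small beside the spread between rats. The labelled regions were checked with their defining markers: the dopamine-synthesis gene Th had medians of 711, 1.63 and 2.17 CPM in VTA, core and shell, and the striatal receptor gene Drd1 had medians of 1.27, 92.3 and 82.6 CPM. Among the 94 libraries analysed, 3 went against their labels: female VTA NIC 2, with Th at 17.9 CPM and the choroid plexus gene Ttr at 2553 CPM, male NAc core SAL 1, with Drd1 at 9.28 CPM, and male NAc shell SAL 1, with Drd1 at 5.09 CPM. These 3 were picked by hand from marker values, with no fixed limit. A male NAc core NIC library with a low sum of striatal projection neuron genes, given below, was not among them. The fits, within-group spreads, correlations and exact tests that hold them are also given without them, alternatives that were partly chosen after seeing the data, while levels by library and counts within rats include them. Where a rat is named below, the number is its number in the labels.

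All 7 genes were highest in VTA. Transcripts of the matrix proteins and of the transporters were 2.19 to 3.29 times as abundant in VTA as in NAc core, and NAc shell lay between the regions for each gene. Dcn ranged from 10.8 to 79.0 CPM over 31 VTA libraries (median 46.2), from 6.28 to 24.1 over 31 NAc core libraries (median 12.7) and from 9.29 to 29.5 over 32 NAc shell libraries (median 21.1). Lum, its partner proteoglycan, ranged from 3.86 to 44.5 CPM in VTA (median 23.0), from 3.45 to 10.4 in NAc core (median 6.51) and from 4.25 to 14.6 in NAc shell (median 9.49). For both proteoglycans the lowest VTA libraries reached into the range of the accumbens, while most VTA libraries lay above every NAc core library.

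The fibrillar collagen genes had the same order of regions with more overlap. Col1a1 spanned 13.6 to 233 CPM in VTA (median 116), 18.8 to 109 in NAc core (median 45.2) and 40.4 to 111 in NAc shell (median 76.7). Col1a2, the other chain of type I collagen, spanned 16.4 to 383 CPM in VTA (median 223), 28.8 to 228 in NAc core (median 88.5) and 57.4 to 213 in NAc shell (median 120.5). The lowest VTA library lay below every NAc core library for both type I chains. Col3a1 spanned 12.1 to 226 CPM in VTA (median 120.0), 16.9 to 114 in NAc core (median 51.8) and 36.8 to 156 in NAc shell (median 85.9).

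For the transporter genes the VTA held both the highest and the lowest libraries. Slc13a4 ranged from 4.35 to 103 CPM in VTA (median 68.0), from 7.71 to 58.0 in NAc core (median 20.4) and from 10.9 to 55.4 in NAc shell (median 28.1). Slc6a13 ranged from 6.34 to 182 CPM in VTA (median 111), from 20.3 to 94.1 in NAc core (median 35.0) and from 27.3 to 89.9 in NAc shell (median 55.5). All 3 regions overlapped for all 7 genes.

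**Figure D1:**
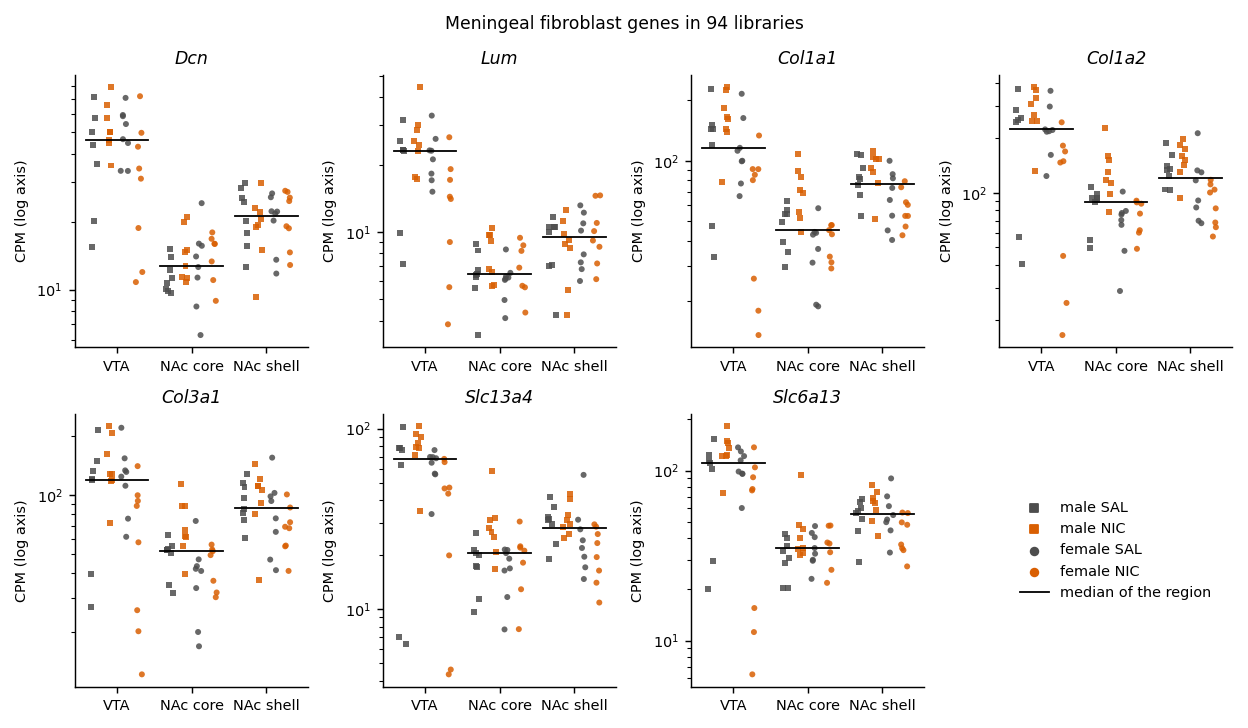
CPM of the 7 meningeal fibroblast genes (log axis) in each of 94 libraries by region; squares are males, circles females, grey SAL and orange NIC, and lines are region medians. Each gene has its highest median in VTA, and the VTA also holds a few libraries far below the rest, down to 6.34 CPM for Slc6a13.

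In a fit of the 12 groups, all 7 genes were higher in VTA than in NAc core at an adjusted p under 0.05 (edgeR's quasi-likelihood test, Benjamini-Hochberg over 16879 genes), and 41.3% of all tested genes passed in this direction. The log2 difference was 1.72 for Dcn (SE 0.130), 1.55 for Lum (SE 0.126), 1.49 for Slc13a4 (SE 0.175), 1.39 for Slc6a13 (SE 0.156), 1.26 for Col1a1 (SE 0.143), 1.23 for Col1a2 (SE 0.156) and 1.13 for Col3a1 (SE 0.158). Their median was 1.39, beside 0.0117 over all genes tested. The largest adjusted p was 5.02e-10, for Col3a1.

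VTA exceeded NAc shell by less. The 7 genes passed again, against 40.5% of all tested genes in this direction, with log2 differences of 1.12 for Lum, 1.09 for Dcn, 1.07 for Slc13a4, 0.84 for Slc6a13, 0.76 for Col1a2, 0.61 for Col1a1 and 0.34 for Col3a1. Col3a1 was nearest to the threshold (adjusted p = 0.0349 from edgeR), and its call was lost with the animal as a block (adjusted p = 0.159) and when prep batch entered the fit (adjusted p = 0.0603). NAc core was below NAc shell in 6 of the 7 genes, against 16.5% of all tested genes. These log2 differences were -0.79 for Col3a1, -0.65 for Col1a1, -0.63 for Dcn, -0.56 for Slc6a13, -0.47 for Col1a2 and -0.43 for Lum. Slc13a4 had a difference of -0.42 and missed the threshold (adjusted p = 0.0555 from edgeR).

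The order also held in most single rats. Dcn was higher in VTA than in NAc core of the same rat in 28 of 30 rats and Lum in 27 of 30, while each of the other 5 genes was higher in VTA in 24 of 30. VTA exceeded NAc shell in 27 of 31 rats for Dcn and Slc13a4, in 26 of 31 for Lum, Col1a2 and Slc6a13, in 25 of 31 for Col1a1 and in 21 of 31 for Col3a1. NAc shell exceeded NAc core in 28 of 31 rats for Col3a1 and in 25 or 26 of 31 for the other genes. Among the 30 rats with all regions, NAc core was the highest region in none for Dcn and Lum, in 1 for Col1a1 and Col3a1, and in 2 for Col1a2, Slc13a4 and Slc6a13. The median difference between VTA and NAc core of a rat was 1.76 on the log2 scale for Dcn and 1.05 for Col3a1.

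Other genes of the same cells and of their matrix followed the regions in part. These lists were written with earlier results of the data known, and their symbols come mostly from tables of genes that the study called. The counts here and for all lists below are therefore not independent evidence. Of 17 other leptomeningeal genes tested, 16 were higher in VTA than in NAc core at an adjusted p under 0.05 (median log2 difference 1.08), among them the growth factor gene Igf2 (1.80), the amino acid transporter gene Slc6a20 (1.61) and the organic cation exporter gene Slc47a1 (4.65). Of 12 matrix genes, 10 were higher, including Sparc (1.29) and the collagen VI chain gene Col6a2 (1.16), and 1 was lower. Of 10 genes for collagen processing, 6 were higher and 2 lower; the collagen chaperone gene Serpinh1 (0.69), the lysyl hydroxylase gene Plod1 (0.74) and the cross-linking enzyme gene Lox (1.38) were among the higher ones.

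Markers of other cells differed between VTA and NAc core too. Mural genes were higher in VTA in 4 of 5, with a summed level of 175 to 1573 CPM in VTA and 192 to 608 in NAc core; Myh11 of smooth muscle had a log2 difference of 0.99, and Pdgfrb of pericytes had 0.06 (adjusted p = 0.318 from edgeR). Endothelial genes were higher in 4 of 4 (413 to 721 against 360 to 539 CPM), with Cldn5, a tight junction gene, at 0.22. Choroid plexus genes were higher in 10 of 11 (16.0 to 2807 against 7.95 to 48.6 CPM), and Ttr reached a lowest value of 0 CPM in NAc core. Perivascular macrophage genes were higher in 3 of 3 (median log2 difference 0.89), oligodendrocyte genes in 4 of 4 (1.60), red blood cell genes in 2 of 2 (0.62) and astrocyte genes in 3 of 4 (1.46), with the remaining astrocyte gene lower, and 2 of 3 ependymal genes were lower (-0.45). Against NAc shell, VTA was higher in 8 of 11 choroid plexus (median 1.33), 4 of 5 mural (0.69), 4 of 4 endothelial (0.36) and 3 of 3 perivascular macrophage genes (0.88). It was also higher in 4 of 4 oligodendrocyte (1.88), 3 of 4 astrocyte (1.44) and 2 of 2 red blood cell genes (0.56). Lower in VTA were 3 of 3 ependymal genes (-0.90), 1 choroid plexus gene and 1 astrocyte gene. Their part in the region differences of the 7 genes was not tested. Without the 3 libraries that went against their labels all 7 genes passed in each of the 3 region comparisons.

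The VTA held the widest spread between rats. Within groups of one sex and treatment the SD of log2 CPM in VTA was 0.67 for Lum, 0.68 for Dcn, 0.88 for Col1a1, 0.92 for Col3a1, 1.02 for Col1a2, 1.06 for Slc6a13 and 1.21 for Slc13a4. In NAc core it ranged from 0.37 to 0.54 and in NAc shell from 0.37 to 0.51. Without the 3 libraries that went against their labels it ranged in VTA from 0.60 for Lum to 1.23 for Slc13a4, in NAc core from 0.37 to 0.55 and in NAc shell from 0.35 to 0.51. The summed level of the 7 genes, in which Col1a2 weighs most, was 69.3 CPM in female VTA NIC 6, 109.7 in NIC 2 and 145 in NIC 8, while the other 5 female NIC rats had 468 to 823 CPM. Male VTA SAL 6 and SAL 7 had 149 and 210.1 CPM, while the other 5 male SAL rats had 733 to 1178.

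These low VTA libraries were low for every one of the 7 genes. Slc13a4 was at 4.35 CPM in female VTA NIC 6, 4.62 in NIC 8 and 19.9 in NIC 2, and at 6.43 and 7.04 CPM in male VTA SAL 6 and SAL 7, against a median of 68.0 over all VTA libraries. Slc6a13 was at 6.34, 15.6 and 11.2 CPM in the same female rats and at 20.2 and 29.2 in the male ones. Th was at 416 CPM in male VTA SAL 6, the lowest of its group, and at 860 CPM in SAL 7, the highest.

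**Figure D2:**
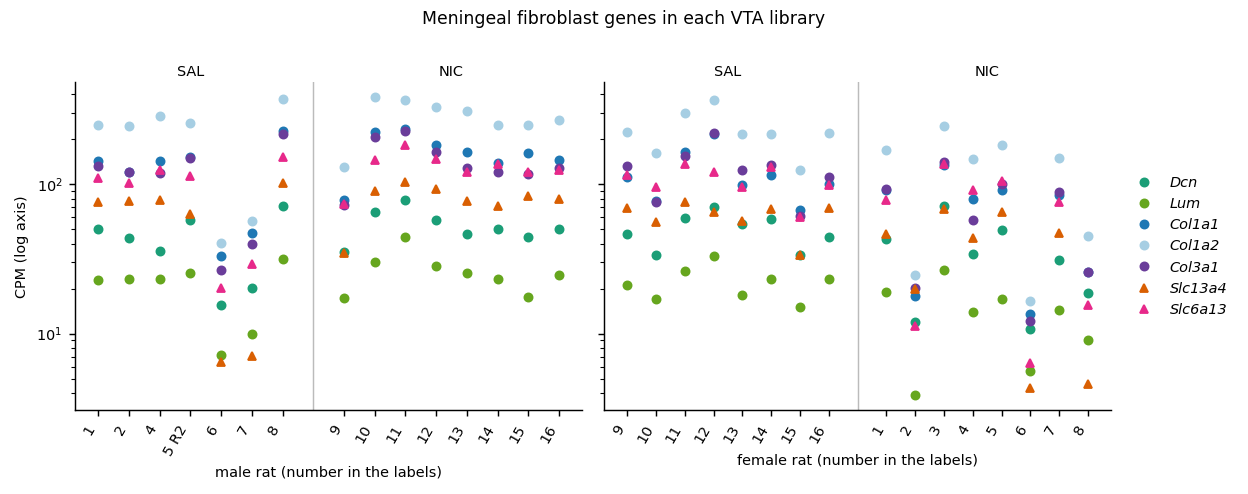
CPM of the 7 genes (log axis) in each VTA library, with the rats of each sex ordered by their number within SAL and NIC. Male SAL 6 and 7 and female NIC 2, 6 and 8 lie below the other rats of their groups, with all 7 genes low together.

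Exposure to NIC was compared with SAL within each sex and region, the comparison the study was built for. At an unadjusted p under 0.05, the threshold of the study, 6 of the 7 genes were higher after NIC in male NAc core, 2 were lower in female VTA, 1 was lower in female NAc shell, and none was called in male VTA, male NAc shell or female NAc core, with edgeR and also with DESeq2. None of the 7 had an adjusted p under 0.05 in any of the 6 comparisons with either tool. The NIC and SAL rats overlapped for every gene in every comparison.

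In the male NAc core the collagen and transporter genes and Dcn were called higher in NIC rats. Col1a2 ranged from 49.6 to 108 CPM in the 8 SAL rats (median 91.9) and from 77.9 to 228 in the 8 NIC rats (median 124), and 6 NIC rats lay above the highest SAL rat. Col1a1 ranged from 29.4 to 63.4 CPM in SAL (median 52.1) and from 44.0 to 109 in NIC (median 70.4), with 5 NIC rats above the highest SAL rat. Col3a1 ranged from 31.7 to 62.9 CPM in SAL (median 52.4) and from 39.8 to 114 in NIC (median 64.1). For the 3 collagen genes the lowest NIC rat was still within the SAL range.

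Both transporter genes of the male NAc core were called as well. Slc13a4 ranged from 9.65 to 26.3 CPM in SAL (median 18.6) and from 16.6 to 58.0 in NIC (median 27.6), and 5 NIC rats exceeded all SAL rats. Slc6a13 ranged from 20.3 to 42.5 CPM in SAL (median 32.0) and from 31.8 to 94.1 in NIC (median 37.5), and 3 NIC rats exceeded all SAL rats. The proteoglycan genes had the smallest differences of the 7. Dcn ranged from 9.65 to 15.1 CPM in SAL (median 10.9) and from 10.7 to 20.9 in NIC (median 13.6), and Lum from 3.45 to 8.80 in SAL (median 6.46) and from 5.69 to 10.4 in NIC (median 7.95).

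The log2 differences of NIC minus SAL in male NAc core were 0.73 for Slc13a4 (SE 0.222), 0.67 for Col1a2 (SE 0.190), 0.58 for Col1a1 (SE 0.176), 0.54 for Col3a1 (SE 0.177), 0.52 for Slc6a13 (SE 0.210), 0.33 for Dcn (SE 0.145) and 0.29 for Lum (SE 0.173), with a median of 0.54 beside -0.0064 over all genes tested. Genes higher after NIC at an unadjusted p under 0.05 made up 5.78% of all tested genes. Lum was the one not called, and adjusted p-values of edgeR lay between 0.406 and 0.570. The two-sided exact permutation test gave p from 0.00855 for Col1a2 to 0.134 for Lum, with 5 of the 7 genes under 0.05, and the smallest p adjusted over the 42 tests of a gene in a sex and region was 0.176. Without SAL 1, 4 genes had an exact p under 0.05. With all 12 groups in one fit 3 genes were called, and leaving out single rats gave 4 to 6. When prep batch entered the fit 5 were called, Slc13a4 (1.44), Col1a2, Col1a1 (0.89), Col3a1 (0.89) and Lum (0.69), while Slc6a13 (0.77) and Dcn were not. Only batch C held both treatments here, so the estimates of that fit rest on its 4 NIC and 2 SAL rats.

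Male rat NIC 9 had the highest NAc core library, with a summed level of the 7 genes of 634 CPM against 229 to 432 in the other NIC rats and 163 to 316 in the SAL rats. The same rat had the lowest level of its group in VTA (442 CPM) and in NAc shell (262 CPM). Within prep batch C, the only batch with male NAc core libraries of both treatments, 4 NIC and 2 SAL rats differed by a median of 0.86 on the log2 scale over the 7 genes, all 7 higher in NIC. This batch held NIC 9, and its SAL rats were SAL 7 with a summed level of 268 CPM and SAL 8 with 163, the lowest of the SAL group. The estimates of the fit with prep batch rest on the same rats and are not a separate check. Drd1 in male NAc core SAL 1 was low, but its summed fibroblast level of 270.3 CPM was near the median of the SAL rats, and without it the number of genes called stayed within the 4 to 6 given.

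**Figure D3:**
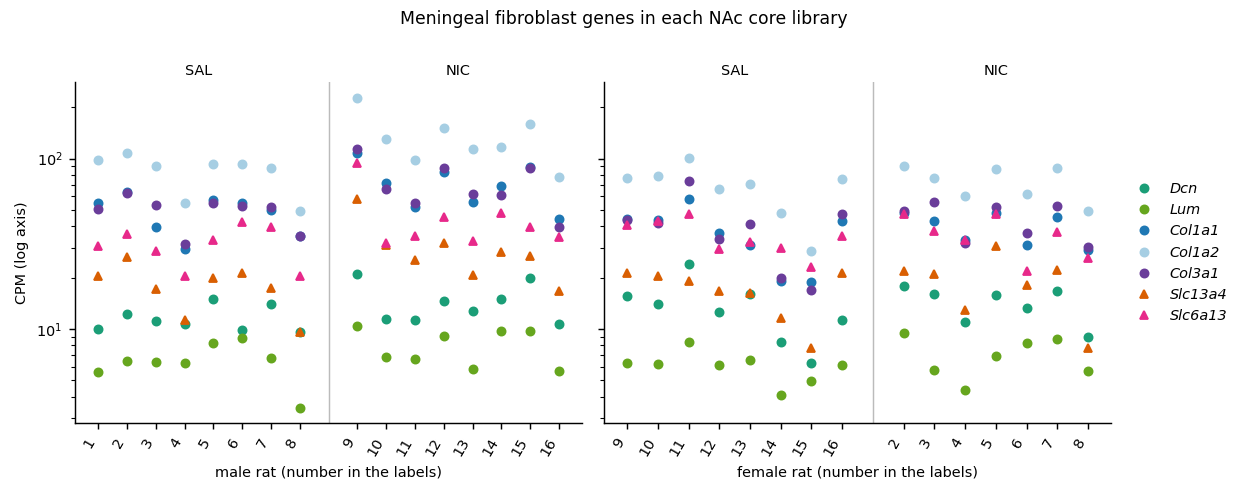
CPM of the 7 genes (log axis) in each NAc core library, with rats ordered by number within SAL and NIC of each sex. Male NIC rats lie higher than male SAL rats with overlap, led by NIC 9 with Col1a2 at 228 CPM, and the female groups cover one range.

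Other genes of these cells moved with the 7 in the male NAc core, where 5.78% of all tested genes were called higher. The symbols of the lists come mostly from genes the study called, so these counts are not independent evidence. Of 17 other leptomeningeal genes, 16 were higher after NIC at an unadjusted p under 0.05 (median log2 difference 0.53), including the transcription factor genes Foxd1 (0.78) and Tbx18 (0.56), the betaine and GABA transporter gene Slc6a12 (0.93) and the growth factor gene Bmp6 (0.46). Of 12 matrix genes 8 were higher, among them the proteoglycan genes Fmod (0.68), Bgn (0.42) and Ogn (0.57) and the collagen XII gene Col12a1 (0.31). Of 10 genes for collagen processing 2 were higher, Plod1 (0.15) and Lox (0.56). No leptomeningeal, matrix or processing gene of these lists was called lower.

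Markers of neighbouring cells in the male NAc core had median log2 differences of 0.33 for mural, 0.41 for perivascular macrophage, 0.32 for choroid plexus and 0.05 for endothelial genes. Pdgfrb (log2 difference 0.28) was the 1 of 5 mural genes called higher, with a summed mural level of 221 to 442 CPM in SAL and 315 to 608 in NIC. None of 4 endothelial genes was called (360 to 539 CPM in SAL, 414 to 534 in NIC), and Cldn5 had a log2 difference of 0.03. The macrophage scavenger receptor gene Cd163 (0.53) was the 1 of 3 perivascular macrophage genes called, with sums of 7.71 to 16.7 CPM in SAL and 13.5 to 25.2 in NIC. Of 11 choroid plexus genes 1, the water channel gene Aqp1 (0.64), was called, with sums of 7.95 to 23.9 CPM in SAL and 14.3 to 48.6 in NIC; Ttr was at 0 in the lowest library of each treatment and at most at 2.05 CPM. The myelin gene Mobp (0.25) was the 1 of 4 oligodendrocyte genes called higher, and no astrocyte, ependymal, neuron or red blood cell gene of the lists was called. Their part in the differences of the 7 genes was not tested.

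In the female VTA all 7 genes had lower estimates after NIC, and Lum and Col3a1 were called lower. Lum ranged from 15.1 to 33.1 CPM in 8 SAL rats (median 22.1) and from 3.86 to 26.5 in 8 NIC rats (median 14.2), with 5 NIC rats below the lowest SAL rat. Col3a1 ranged from 61.4 to 222 CPM in SAL (median 128) and from 12.1 to 141 in NIC (median 72.9), with 4 NIC rats below the lowest SAL rat. For both genes 1 NIC rat lay above the SAL median.

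The other 5 genes had the same direction and were not called. Dcn ranged from 33.5 to 70.7 CPM in SAL (median 50.2) and from 10.8 to 71.9 in NIC (median 32.7). Col1a1 ranged from 66.7 to 216 CPM in SAL (median 106) and from 13.6 to 134 in NIC (median 82.7), and Col1a2 from 124 to 364 in SAL (median 220) and from 16.4 to 245 in NIC (median 148). For each of these 3 genes, 7 of the 8 NIC rats lay below the SAL median. Slc13a4 ranged from 33.6 to 76.1 CPM in SAL (median 66.6) and from 4.35 to 68.0 in NIC (median 45.1). Slc6a13 ranged from 60.2 to 137 CPM in SAL (median 107) and from 6.34 to 137 in NIC (median 77.2).

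The log2 differences in female VTA were -0.91 for Col3a1 (SE 0.414), -0.90 for Col1a2 (SE 0.440), -0.82 for Col1a1 (SE 0.404), -0.72 for Slc13a4 (SE 0.437), -0.71 for Slc6a13 (SE 0.474), -0.69 for Lum (SE 0.304) and -0.56 for Dcn (SE 0.325). Their median was -0.72, beside 0.0156 over all genes. Genes lower after NIC at an unadjusted p under 0.05 made up 5.20% of all tested genes, and adjusted p-values of the 7 lay between 0.521 and 0.658. By the exact permutation test on log2 CPM 5 genes had a p under 0.05, from 0.0199 for Lum to 0.0410 for Col1a1, none under 0.05 after adjustment over the 42 tests. Without NIC 2 the exact p was under 0.05 for 3 genes, Col1a2 (0.0336), Lum (0.0356) and Col3a1 (0.0448).

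These calls rested on few libraries. No gene was called without SAL 11, SAL 12, SAL 14, NIC 6 or NIC 8, each left out alone, and 5 genes were called without NIC 3. Without NIC 2, the library with Th at 17.9 CPM, 1 gene was called, Lum (-0.55). With all 12 groups in one fit all 7 were called, and when prep batch entered the fit none was. Within prep batch J, 2 NIC and 2 SAL rats differed by a median of -1.07 over the 7 genes, all lower in NIC; within batch L, 1 NIC and 2 SAL rats differed by 0.30, all higher in NIC. The other batches of female VTA held 1 treatment each.

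Of 5 mural genes tested in the female VTA, 4 were lower after NIC at an unadjusted p under 0.05: Myh11 (-0.97), the contractile and filament genes Tagln (-0.99) and Des, and Pdgfrb (-0.40). Their summed level ranged from 486 to 1573 CPM in SAL and from 175 to 830 in NIC. Of 17 other leptomeningeal genes 8 were lower (median -0.70), among them Foxc1 (-0.69), Bmp6 (-0.73), Igfbp2 (-0.70) and Aebp1 (-0.74), and of 12 matrix genes 3 were lower, namely fibronectin Fn1 (-0.49), the collagen V gene Col5a2 (-0.29) and Bgn (-0.74). Collagen processing had 6 of 10 genes lower, with Bmp1 (-0.16), Plod1 (-0.22), Serpinh1 (-0.40) and Lox (-0.84) having the smallest p. Over all tested genes 5.2% were called lower. The symbols of the lists come mostly from genes the study called, so these counts are not independent evidence.

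Of 4 endothelial genes 2 were lower in female VTA, Esam (-0.34) and Cldn5 (-0.22), with sums of 494 to 721 CPM in SAL and 413 to 563 in NIC. Lyve1 (-0.66) was the 1 of 3 perivascular macrophage genes called lower, with sums of 23.0 to 44.1 CPM in SAL and 9.54 to 39.4 in NIC. None of 11 choroid plexus genes was called, and their sum ranged from 18.8 to 962 CPM in SAL and from 16.0 to 2807 in NIC, where Ttr spanned 0.241 to 2553 CPM. The astrocyte gene Gfap (-0.42) was the 1 of 4 of its list called lower, and no oligodendrocyte, ependymal, neuron or red blood cell gene was called. The part of these cells in the differences of the 7 genes was not tested.

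In the male VTA all 7 genes had higher estimates in NIC and none was called, with edgeR or with DESeq2. The log2 differences ranged from 0.33 for Col3a1 (SE 0.352) to 0.49 for Slc6a13 (SE 0.335), and exact permutation p-values from 0.105 to 0.246. Slc6a13 ranged from 20.2 to 153 CPM in 7 SAL rats (median 111) and from 73.4 to 182 in 8 NIC rats (median 130.3). Dcn ranged from 15.4 to 71.7 CPM in SAL (median 43.6) and from 35.4 to 79.0 in NIC (median 50.02), and Col1a2 from 40.4 to 374 in SAL (median 251) and from 131 to 383 in NIC (median 289). SAL 6 and SAL 7 lay below every NIC rat for these 3 genes, and the other 5 SAL rats lay within the NIC range. Genes called higher made up 2.35% of all tested genes. Beside these values 2 of 4 oligodendrocyte genes (median -0.23), 1 of 5 mural (0.30) and 1 of 11 choroid plexus genes (0.16) were called lower. Called higher was 1 of 6 striatal projection neuron genes (median 0.18), and the part of these cells was not tested. Within prep batch C, 2 NIC and 2 SAL rats differed by a median of 0.99 over the 7 genes, and SAL 7 was one of the SAL rats.

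In the remaining comparisons 1 gene was called. In female NAc core the log2 differences lay between 0.03 for Slc6a13 and 0.19 for Lum and Slc13a4, no gene was called (2.87% of all tested genes were called higher), and exact permutation p-values were 0.340 or more. When prep batch entered the fit 6 of these 7 estimates turned negative, from -0.05 for Col3a1 to -0.49 for Slc13a4, and none was called. In male NAc shell they lay between -0.14 for Dcn and 0.22 for Slc6a13, again with no call (1.02% of all tested genes were called higher), and 4 estimates turned negative when prep batch entered the fit, with Col3a1 at -0.49. Without SAL 1 the exact permutation p-values in male NAc shell were 0.283 or more, and the difference in mean log2 CPM was between -0.26 for Dcn and 0.12 for Slc6a13 and Col1a2, with Col3a1 at -0.05. In female NAc shell Slc6a13 was called lower, with 33.0 to 89.9 CPM in SAL (median 53.2) and 27.3 to 56.7 in NIC (median 42.4), a log2 difference of -0.40 (SE 0.180, adjusted p = 0.481 from edgeR). Its groups overlapped, the exact permutation p was 0.0774, and 4.88% of all tested genes were called lower in this comparison. The call was lost without SAL 10, 12 or 13 or NIC 1, 2, 3 or 5, each alone. The other 6 genes of female NAc shell had log2 differences between -0.35 for Col1a2 and 0.14 for Lum. When prep batch entered the fit Slc6a13 was at -0.02 and not called, and the estimates of Col1a1, Col1a2, Col3a1 and Slc13a4 turned positive. Beside these values in female NAc shell, 6 of 6 striatal projection neuron genes were lower after NIC at an unadjusted p under 0.05 (median log2 difference -0.35), with a summed level of 1917 to 2633 CPM in SAL and 1168 to 2555 in NIC. Called higher were 2 of 3 ependymal genes (median 0.60), with sums of 8.40 to 26.6 CPM in SAL and 14.7 to 42.8 in NIC, 1 of 4 oligodendrocyte genes (median 0.32), 1 of 11 choroid plexus genes (median 0.21) and 1 of 5 dopaminergic neuron genes (median 0.11). No mural, endothelial, perivascular macrophage, astrocyte or red blood cell gene was called there, and 1 of 17 other leptomeningeal genes was called lower, Slc6a12 (-0.69). The part of other cells in the difference of Slc6a13 was not tested.

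**Figure D4:**
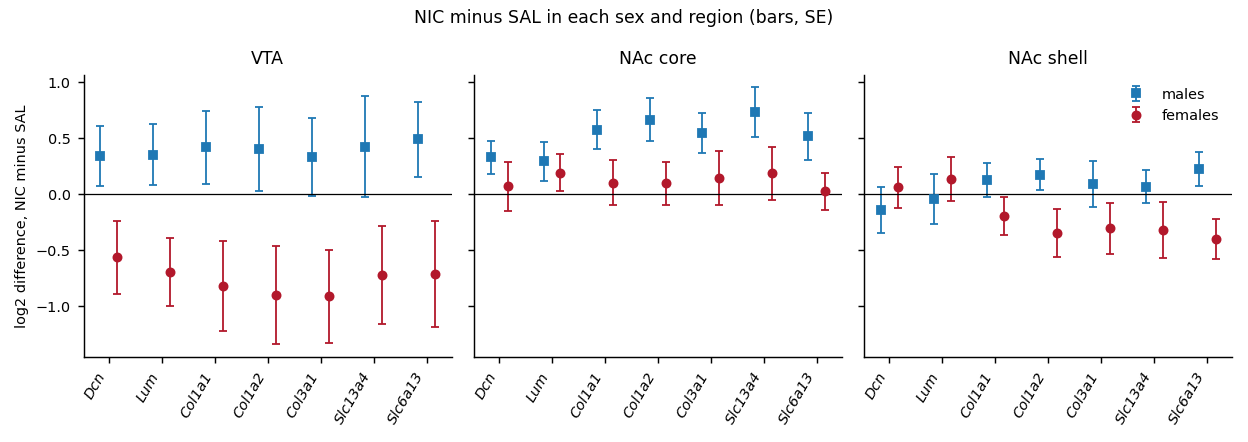
Difference of NIC minus SAL (log2, edgeR estimate with bars for its SE) for the 7 genes in males (squares) and females (circles) of each region. In VTA the male estimates lie above 0 and the female ones below, and in NAc core the male estimates reach 0.73 for Slc13a4.

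The response to NIC was compared between the sexes with an interaction term. In VTA the difference of NIC minus SAL was larger in males than in females by 1.30 for Col1a2 (SE 0.611), 1.24 for Col3a1 (SE 0.576), 1.23 for Col1a1 (SE 0.551) and 1.04 for Lum (SE 0.431), all from edgeR and on the log2 scale. The same term was 1.20 for Slc6a13 (SE 0.617), 1.144 for Slc13a4 (SE 0.661) and 0.90 for Dcn (SE 0.445), which were not called. Thus 4 of 7 genes passed an unadjusted p under 0.05 in this direction, beside 6.24% of all tested genes, and no adjusted p of the 7 was below 0.381. The count was 2 without female VTA NIC 2 and 0 when prep batch entered the fit. In the same test 9 of 17 other leptomeningeal and 4 of 5 mural genes passed, the latter including Pdgfrb (0.59) and Myh11 (1.35). Perivascular macrophage genes passed in 3 of 3 (median 0.83), endothelial genes in 2 of 4 (median 0.27) and striatal projection neuron genes in 1 of 6 (median 0.17), all in the direction of the 7 genes, and 1 of 11 choroid plexus genes passed in the opposite direction (median -0.94). No ependymal, astrocyte, oligodendrocyte, dopaminergic neuron or red blood cell gene passed. Their medians were -1.10, 0.17, -0.20, 0.59 and 0.04, in that order. The part of these cells in the interaction was not tested.

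No gene passed the interaction test in NAc core with edgeR or DESeq2, where 4.86% of all tested genes passed in the direction of a larger male difference, while 4 of the 7 passed when prep batch entered the fit and 0 without male NAc core SAL 1. In NAc shell Slc6a13 passed (0.63, SE 0.249, adjusted p = 0.579 from edgeR), beside 3.45% of all tested genes. When prep batch entered the fit it turned to -0.24 and did not pass, and without male NAc shell SAL 1 it was 0.53 and passed. In the same test 3 of 3 ependymal genes (median -1.20) and 3 of 11 choroid plexus genes (median -0.87) passed in the opposite direction, and 2 of 3 perivascular macrophage genes (median 0.41) in the direction of Slc6a13. So did 1 of 5 mural genes (median 0.12), while 1 of 5 dopaminergic neuron genes (median 0.08) passed in the opposite direction, and the part of these cells was not tested.

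Between the sexes, Col1a1, Col1a2 and Col3a1 were higher in males than in females in NAc core, and Col1a1 and Col1a2 in NAc shell. In NAc core Col1a1 ranged from 29.4 to 109 CPM in 16 male libraries (median 55.2) and from 18.8 to 58.1 in 15 female libraries (median 42.9), a log2 difference of 0.60 (SE 0.149, adjusted p = 0.0022). Col1a2 ranged from 49.6 to 228 CPM in males (median 98.7) and from 28.8 to 102 in females (median 75.8), a difference of 0.57 (SE 0.154, adjusted p = 0.0045). For Col3a1 the range was 31.7 to 114 CPM in males (median 55.1) and 16.9 to 73.9 in females (median 42.1), a difference of 0.49 (SE 0.161, adjusted p = 0.0181). The sexes overlapped for all 3 genes, and 15.5% of all tested genes were higher in males of this region at an adjusted p under 0.05. Without male NAc core SAL 1 the differences were 0.61 for Col1a1, 0.58 for Col1a2 and 0.51 for Col3a1, all still called.

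In NAc shell Col1a1 ranged from 51.4 to 111 CPM in 16 males (median 89.9) and from 40.4 to 100.0 in 16 females (median 61.3), and differed by 0.46 (SE 0.122, adjusted p = 0.00716). Col1a2 ranged from 93.4 to 197 CPM in males (median 142) and from 57.4 to 213 in females (median 95.5), and differed by 0.53 (SE 0.141, adjusted p = 0.00699); 10.9% of all tested genes passed in this direction. When prep batch entered the fit the differences in NAc shell were 1.32 for Col1a1 and 1.37 for Col1a2. Only batch L held both sexes, and in NAc shell it had 1 male library (NIC 10) and 1 female library (SAL 15). The values of that fit therefore rest on 1 library per sex. In NAc core that fit could not be made. Without male NAc shell SAL 1 the differences were 0.50 for Col1a1 and 0.57 for Col1a2, and Slc13a4 (0.44) passed as well. Slc13a4 (0.41, adjusted p = 0.0540) and Col3a1 (0.35, adjusted p = 0.129) missed the threshold of the edgeR test. The proteoglycan genes had differences of -0.01 for Dcn and -0.14 for Lum in NAc shell and of -0.11 and 0.13 in NAc core, and none was called. In NAc shell they turned to 0.81 for Dcn and 0.37 for Lum when prep batch entered the fit, which rests on the same libraries of batch L.

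In VTA no gene passed between the sexes at an adjusted p under 0.05 with edgeR or DESeq2, where 0.824% of all tested genes did in this direction, and 1 of the 7 had an unadjusted p under 0.05. Col1a1 had the smallest unadjusted p in VTA (log2 difference 0.70, adjusted p = 0.193 from edgeR), and without female VTA NIC 2 it was at 0.61 and again no gene passed. Along with the sex difference in NAc core, all 6 striatal projection neuron genes tested were lower in males, with a median of -0.73 and summed levels of 308 to 3499 CPM in male SAL, 624 to 3270 in male NIC, 2343 to 4904 in female SAL and 2129 to 4664 in female NIC rats. Of 17 other leptomeningeal genes, 9 were higher in males in each of the accumbens regions at an adjusted p under 0.05, Igf2 by 0.76 in core and 0.72 in shell. In NAc core 5 of 11 choroid plexus genes (median -0.80), 2 of 3 ependymal genes (median -1.26) and 2 of 4 oligodendrocyte genes (median -0.12) were lower in males as well, while 2 of 4 endothelial genes and 2 of 4 astrocyte genes were higher and 1 of each lower; 1 choroid plexus gene was higher, and 1 of 3 perivascular macrophage and 1 of 5 dopaminergic neuron genes were lower. In NAc shell 2 of 2 red blood cell genes were higher in males (median 0.44), with summed levels of 70.9 to 176 CPM in males and 76.3 to 134 in females over both treatments. Endothelial genes were higher in 2 of 4 and lower in 1 there (median 0.13), 1 of 5 mural genes was higher, 1 of 11 choroid plexus genes was higher and 1 lower, and 1 of 3 perivascular macrophage, 1 of 4 oligodendrocyte and 1 of 5 dopaminergic neuron genes were lower. None of the 6 striatal projection neuron genes was called in NAc shell. The part of these cells in the sex differences was not tested.

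The 7 genes varied together from rat to rat. Over the 21 pairs in each of the 6 sets of one sex and region, 126 relations in all, every Spearman rho was positive. Pearson's r of log2 CPM had a median of 0.965 in male VTA (15 libraries), 0.962 in female VTA (16), 0.800 in male NAc core (16), 0.804 in female NAc core (15), 0.741 in male NAc shell (16) and 0.769 in female NAc shell (16). By a permutation test with 100000 resamples and Benjamini-Hochberg adjustment over the 126 relations, 117 had an adjusted p under 0.05 for r and 114 for Spearman's rho, the smallest p the resamples can give being 1e-05. The median over the 126 values was 0.858 for r and 0.829 for rho. After subtraction of the mean of each treatment group the number for r was again 117. Without the 3 libraries that went against their labels 113 relations passed for r and 110 for rho, and the median r was 0.962 in female VTA. For males it was 0.807 in NAc core and 0.697 in NAc shell, where the lowest r was 0.0997. Without the 2 libraries farthest from the median of the first gene of a pair, r had a median of 0.795 and ranged from 0.129 to 0.985, with a median of 0.882 in male VTA and 0.923 in female VTA. The relations share libraries and genes and are not independent of each other, and NIC and SAL rats were pooled in each set.

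The 10 pairs of matrix genes had a median r of 0.971 in female VTA and 0.969 in male VTA, and the 11 pairs with Slc13a4 or Slc6a13 had 0.925 and 0.955. In male NAc shell the medians were 0.821 and 0.593, and in female NAc shell 0.761 and 0.769. No test compared the kinds of pair. The 9 relations that missed the threshold for r lay in NAc shell (8) and female NAc core (1).

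**Figure D5:**
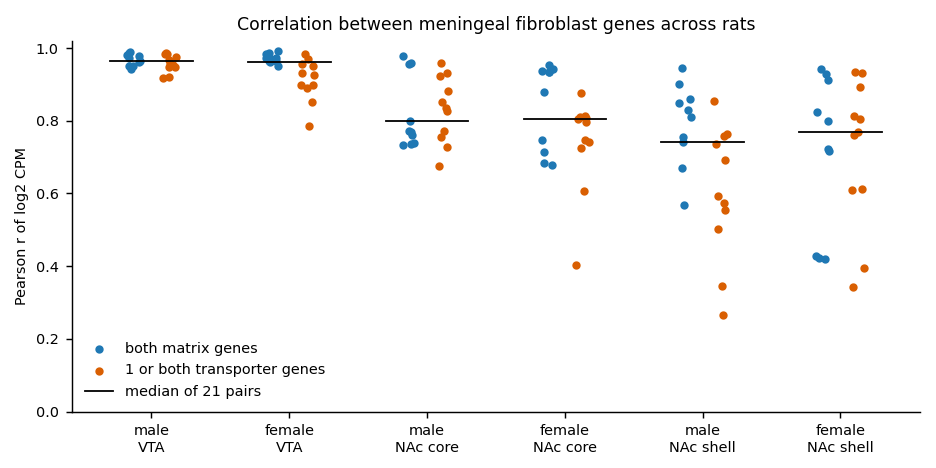
Pearson r of log2 CPM between the 7 genes over the rats of each sex and region, 1 point per pair, split into pairs of matrix genes (blue) and pairs with a transporter gene (orange), with the median of the 21 pairs as a line. VTA points have medians of 0.965 in males and 0.962 in females and reach down to 0.786, for Lum with Slc13a4 in females, and the accumbens points reach down to 0.267.

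The same gene was also compared between regions of the same rats. Over 30 or 31 rats, r of the same gene in 2 regions of the same rats, centred within groups, ranged from -0.458 for Lum in VTA and NAc core to 0.170. Spearman's rho over these relations ranged from -0.392 to 0.184. None of the 21 relations had an adjusted permutation p under 0.05, and the smallest was 0.229. Without the 3 libraries that went against their labels r ranged from -0.453 to 0.131 over 28 to 30 rats, rho from -0.436 to 0.184, and the smallest adjusted p was 0.304. A p that misses the threshold does not show that regions of a rat vary independently.

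The genes most like the 7 were found by Pearson's r, over the 94 libraries and after centring within groups, with the mean of the 7 standardised genes, among 7556 genes with a symbol and a mean of at least 1 CPM. The 10 highest were Vim (0.970), an intermediate filament gene of mesenchymal cells, Bgn (0.963), a proteoglycan gene, Slc6a20 (0.958), Islr (0.956), the retinoic acid synthesis gene Aldh1a2 (0.953), Igf2 (0.953), Nupr1 (0.953), the collectin gene Colec12 (0.952), Aebp1 (0.950) and Anxa2 (0.949). Each of the 7 genes had r with the mean of the other 6 between 0.834 for Lum and 0.972 for Col1a2. Among markers of other cells, Tagln of smooth muscle had 0.929, Myh11 0.907, Mrc1 of perivascular macrophages 0.777 and Pdgfrb 0.665, while Cldn5 of endothelium had 0.208 and Ttr of choroid plexus 0.0458. The same measure was 0.194 for Th and -0.0914 for Drd1. Over 91 libraries, without the 3 that went against their labels, the 10 genes most alike were the same 10, with r from 0.949 to 0.969, while Ttr had 0.226, Th -0.0182 and Drd1 -0.178, and the 7 genes had 0.825 for Lum to 0.974 for Col1a2 with the mean of the other 6. These are descriptions over libraries, which share the low VTA rats named above.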

How the data were processed

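A separate RNA-seq library was made per rat and region (VTA, NAc core, NAc shell). The authors trimmed reads with fastp 0.20.0, estimated transcript abundance with Salmon 0.12.0 on Rnor 6 (per the labels and the study's methods), gathered it per gene with tximport, and deposited the expected (estimated) counts rounded to whole numbers and not normalized; these deposited counts cover 17637 genes and 96 libraries, with 0 columns lacking a sample. The 94 libraries shown in the study were analysed; male VTA SAL 5 R1, a repeat library of one rat, and female NAc core NIC 1 entered no main fit. No VTA library of male SAL 3 was analysed here.

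The 16879 genes that exceeded a normalized count of 10 in 3 or more libraries were tested with edgeR 4.0.16 (TMM, quasi-likelihood test, Benjamini-Hochberg) in R 4.3.3, and with DESeq2 1.42.0 as an alternative. NIC was compared with SAL within each sex and region without covariates, sex within region with treatment as a term, and region over 12 groups. Single genes also had two-sided exact permutation tests on log2 CPM in Python 3.11.15. p-values of the tests within a region measure the spread between rats. The main region fit had no animal block, so libraries of the same rat counted as separate in its p-values.

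Libraries of one animal number come from one rat by the labels. Centred over all genes, libraries of the same rat had a median correlation of 0.152 between NAc core and shell (other rats, -0.0161), 0.0437 between VTA and core and 0.0577 between VTA and shell.

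The 7 genes and all lists were chosen with earlier results of these data known. The text names the 7 genes, Ttr, Cldn5, Myh11 and Pdgfrb with marker lists, up to 4 called genes per list, and the 10 genes most alike; Th and Drd1, as region checks, and Tagln and Mrc1 among the genes alike were named after their values were seen. Symbols and chromosomes come from the study's supplementary tables, which name 7926 of the identifiers, and no gene lengths were used, so levels are not compared between genes. Promoters are RefSeq's on GRCr8, another build than that of the counts, and were matched by symbol.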

Additional observations from a re-analysis of the deposited data

Results flagged for a closer look

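Within single groups of 7 or 8 rats, 9 of the 84 sets of a gene and a group held a library set apart by Dixon's criterion, which chance alone flags in about 1 in 20 groups. Male rat NIC 9 accounted for 7 of them. In its VTA library Col1a1 was at 78.1 CPM, Col1a2 at 131, Slc13a4 at 34.8 and Slc6a13 at 73.4, each the lowest of 8. In its NAc shell library Col1a1 was at 51.4 CPM and Col3a1 at 36.8, again the lowest of 8. In its NAc core library Slc6a13 was at 94.1 CPM, the highest of 8. In female VTA SAL 15 Slc13a4 was at 33.6 CPM and Slc6a13 at 60.2, the lowest of 8.

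The interaction of sex and NIC in VTA had an unadjusted p under 0.05 with edgeR for Lum (1.04), Col1a1 (1.23), Col1a2 (1.30) and Col3a1 (1.24), as the male minus the female log2 difference. In this direction 6.24% of all tested genes passed, the smallest adjusted p of the 7 genes was 0.381, 0 of the 7 passed when prep batch entered the fit, and 2 passed without female VTA NIC 2. In the same test 4 of 5 mural, 3 of 3 perivascular macrophage, 2 of 4 endothelial and 1 of 6 striatal projection neuron genes passed in this direction and 1 of 11 choroid plexus genes in the opposite one, and their part was not tested. In NAc shell the same term was 0.63 for Slc6a13, with an adjusted p of 0.579 from edgeR and 3.45% of all tested genes passing, and it turned to -0.24 when prep batch entered the fit; 2 of 3 perivascular macrophage and 1 of 5 mural genes passed with it, and 3 of 3 ependymal, 3 of 11 choroid plexus and 1 of 5 dopaminergic neuron genes passed in the opposite direction.

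The library labelled female NAc core NIC 1, which entered no comparison, had Th at 329 CPM and Drd1 at 1.69 CPM. All 7 genes lay above the highest female NAc core SAL library there, with Dcn at 42.3 CPM, Lum at 21.8, Col1a1 at 86.8, Col1a2 at 166, Col3a1 at 86.4, Slc13a4 at 48.7 and Slc6a13 at 81.3. Each of these values lay within the range of the VTA libraries.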

How the results depend on the processing

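Over 1211 values of a gene under an alternative, 1103 kept their direction and side of the threshold and 38 changed sign. Of those that kept their direction, 50 were no longer called and 20 became called. Slc6a13 in the NAc shell interaction both changed sign and lost its call. The causes were not tested. When prep batch entered the fit, 0 genes were called in female VTA and female NAc shell. For the interaction 0 were called in VTA and NAc shell and 4 in NAc core. These fits compare treatments only within batches that held both. Between the sexes in NAc shell the fit rested on 1 male and 1 female library of batch L. The fit between the sexes in NAc core could not be made with prep batch. With all 12 groups in one fit 7 genes were called in female VTA, 3 in male NAc core and 0 in female NAc shell. Without female VTA NIC 2 the interaction in VTA had 2 genes called. Leaving out each rat in turn gave 0 to 5 genes in female VTA, 4 to 6 in male NAc core and 0 to 1 in female NAc shell. With the animal as a replicate block, pairing regions of a rat, 7 genes were called between VTA and NAc core, 6 between VTA and NAc shell and 6 between NAc core and NAc shell; Col3a1 between VTA and NAc shell was the one call lost.

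These log2 differences changed sign when prep batch entered the fit. In male NAc shell they were -0.26 for Col1a1, -0.0012 for Col1a2, -0.49 for Col3a1 and -0.26 for Slc6a13. In female NAc core they were -0.22 for Dcn, -0.25 for Col1a1, -0.20 for Col1a2, -0.054 for Col3a1, -0.49 for Slc13a4 and -0.41 for Slc6a13. In female NAc shell they were 0.00076 for Col1a1, 0.022 for Col1a2, 0.096 for Col3a1 and 0.21 for Slc13a4. The interaction in NAc shell was -0.26 for Col1a1, -0.025 for Col1a2, -0.59 for Col3a1 and -0.24 for Slc6a13. Between the sexes Dcn was at -0.11 in VTA and 0.81 in NAc shell, and Lum at 0.37 in NAc shell. Without male NAc shell SAL 1, an alternative chosen after seeing the data, Dcn differed by 0.021 between the sexes in NAc shell. Leaving out single rats moved the sign in male NAc shell for Lum (-0.14 to 0.058), Col3a1 (-0.00039 to 0.21) and Slc13a4 (-0.0099 to 0.14), in female NAc core for Dcn (-0.036 to 0.24), Col1a2 (-0.017 to 0.20) and Slc6a13 (-0.055 to 0.12), and in female NAc shell for Dcn (-0.029 to 0.14).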
